A study of Mus musculus with 12 samples.

Results

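The receptors of the TREM (triggering receptor expressed on myeloid cells) family and their signalling adaptors were followed in mouse macrophages by genotype and by time after lipopolysaccharide (LPS), the endotoxin of Gram-negative bacteria. The members were the 8 rows of the deposited expression table, out of 43280, that carry the symbols Treml4, Trem1, Trem2, Trem3, Treml1, Treml2, Tyrobp and Hcst, and they were chosen by name and not by their values. RNA came from bone marrow-derived macrophages (BMDM), grown from marrow of wild type (wt) and Treml4-/- mice of the background strain C57BL6 with the macrophage growth factor M-CSF. Cells received the vehicle PBS (M0) or LPS at 100 ng/ml for 8 h (M1-8 h) or 12 h (M1-12 h), which gave 6 conditions with 2 libraries each and 12 libraries in all. The Treml4-/- mice came from another laboratory. Which part of the gene they lack and the age and sex of the donors of these cells are not given in the sources used here. The labels call the libraries of a condition biological replicates without saying whether they came from separate mice, so the p-values below measure the spread between these libraries, which may be partly technical.

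TREM receptors are cell surface proteins with an immunoglobulin-like domain and mostly a short cytoplasmic tail that cannot signal by itself. Trem1, Trem2, Trem3 and Treml4 associate with Tyrobp, also called DAP12, an adaptor whose ITAM motif recruits the kinase Syk when it is phosphorylated by Src family kinases. Hcst, also called DAP10, is an adaptor that carries a binding motif for phosphatidylinositol 3-kinase instead. In macrophages TREM1 is known as an amplifier of inflammatory signals and TREM2 as a receptor for lipids and apoptotic cells, whereas TREML1 is best known from platelets and carries an inhibitory motif of its own.

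Libraries held 48008751 to 58500792 reads counted on genes, so that the floor of 3 reads stood at 0.0513 to 0.0625 CPM. CPM, the read count scaled to a library of fixed size, is the level of a gene below, and its change is a difference of log2(CPM + 1), which understates the change of weakly expressed genes. Changes were tested with limma over all 12 libraries and 12091 genes, and a gene was called when its Benjamini-Hochberg adjusted p was under 0.05 and its fold change at least 1.4. Of the marker genes, 8 of 8 for macrophages, 7 of 9 for neutrophils and 6 of 7 for osteoclasts reached 1 CPM. For dendritic cells 2 of 6 did, and for fibroblasts also 2 of 6. None of 7 for lymphocytes did, with the T cell genes Cd3e and Cd3g at 3 reads or fewer in every library. Summed dendritic cell markers lay at 0.747 to 1.06 CPM at M0 and at 4.37 to 9.25 CPM after LPS, then mostly Xcr1 and Clec9a. Summed macrophage markers lay at 20712 to 27907 CPM at M0 and at 9996 to 13416 CPM after LPS, a fall carried mostly by Lyz2 and Csf1r, while summed neutrophil markers lay at 48.2 to 158 CPM. The 6 genes of the LPS response summed to 44.9 to 62.5 CPM at M0 and to 18804 to 24328 CPM after LPS. In bulk RNA, fewer cells of a type and less RNA per cell cannot be told apart. LPS shifted the whole distribution on the CPM scale, with the median gene lower by 0.74 on the log2 scale at M1-8 h and by 0.77 at M1-12 h in wt, and by 0.70 and 0.74 in Treml4-/- cells. With median of ratios scaling, which centres the libraries on the typical gene, these medians lay between -0.05 and -0.03, so directions of small changes depend on the scaling and are given for both.

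The 6 TREM genes among the members lie on chromosome 17 on the plus strand within 134.409 kb of GRCm38. Their order is Trem1, Trem3, Treml4, Treml2, Trem2 and Treml1. Trem1 (ENSMUSG00000042265) extends from 48232768 to 48246924, Trem3 (ENSMUSG00000041754) from 48247777 to 48258841 and Treml4 (ENSMUSG00000051682) from 48264295 to 48275360, with 5453 bases between the latter pair. Further along lie Treml2 (ENSMUSG00000071068) from 48299498 to 48312533, Trem2 (ENSMUSG00000023992) from 48346401 to 48354147 and Treml1 (ENSMUSG00000023993) from 48359916 to 48367176. The adaptor genes are neighbours on chromosome 7, with Tyrobp (ENSMUSG00000030579, plus strand) from 30413760 to 30417585 and Hcst (ENSMUSG00000064109, minus strand) from 30417712 to 30419854, 126 bases apart. RefSeq has a long noncoding model, Gm52308, on the minus strand from 48234099 to 48272407, across Trem1, Trem3 and Treml4. The counting is not stated to have used strand, so reads of these 3 genes and of that transcript could not be told apart with certainty.

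The RefSeq table of GRCm38.p6 holds the promoter of 5 of the 8 members, Treml4, Trem1, Trem2, Treml1 and Hcst. The sequence up to the first RefSeq transcript start is shown for the 4 receptors among them, because they lie in the same cluster and LPS moved their RNA in different directions. Capitals mark matches of the motifs searched on both strands, and only the Trem2 sequence has any.
Trem2 (chr17:48346151-48346400, plus strand): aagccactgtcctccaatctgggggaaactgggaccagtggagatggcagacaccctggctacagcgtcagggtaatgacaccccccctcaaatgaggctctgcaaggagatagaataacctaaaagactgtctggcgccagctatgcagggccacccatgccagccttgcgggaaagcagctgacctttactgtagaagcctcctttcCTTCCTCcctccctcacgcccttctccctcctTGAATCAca
Treml1 (chr17:48359666-48359915, plus strand): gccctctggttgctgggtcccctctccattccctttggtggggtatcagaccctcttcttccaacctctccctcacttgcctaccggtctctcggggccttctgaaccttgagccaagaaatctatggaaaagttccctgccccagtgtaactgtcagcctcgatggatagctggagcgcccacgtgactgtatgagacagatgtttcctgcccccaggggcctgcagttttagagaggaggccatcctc
Trem1 (chr17:48232489-48232712, plus strand): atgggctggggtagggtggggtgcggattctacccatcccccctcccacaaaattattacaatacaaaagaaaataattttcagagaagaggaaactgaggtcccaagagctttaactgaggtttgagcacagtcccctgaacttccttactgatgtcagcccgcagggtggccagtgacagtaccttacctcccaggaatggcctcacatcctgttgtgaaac
Treml4 (chr17:48264045-48264199, plus strand): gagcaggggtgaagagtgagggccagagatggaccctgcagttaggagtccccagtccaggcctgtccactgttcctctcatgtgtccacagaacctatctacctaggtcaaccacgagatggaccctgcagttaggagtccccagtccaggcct
For AP-1 the letters TGANTCA were searched, where N stands for any base. In Trem2 this pattern was met as TGAATCA at positions -9 to -3 from the start, and the PU.1 motif GAGGAAG lay on the minus strand at -41 to -35. The C/EBP motif TTGCNNAA was also met at positions 22 to 29, downstream of the bases shown. No promoter of the other 4 held any of these motifs or the ISRE or NF-kB motif within the 250 bases before and 50 bases after the start. Among all 32851 promoters of that table, 7.81% held the AP-1 motif, 13.6% PU.1, 10.8% C/EBP, 3.44% ISRE and 4.51% NF-kB. A match describes the letters of a window and is no evidence of binding. The Treml4 sequence lies within the span of Gm52308.

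Treml4 was read in every wt library and in none of the Treml4-/- libraries. The wt replicates had 433 and 334 reads at M0 (8.35 and 6.57 CPM), 198 and 213 at M1-8 h (3.997 and 3.955 CPM) and 512 and 663 at M1-12 h (9.82 and 13.2 CPM), and each of the 6 Treml4-/- libraries had 0 reads. Against the floor of 3 reads in the smaller Treml4-/- library of each time point, mean Treml4 CPM was at least 122-fold, 72.4-fold and 184-fold higher in wt at M0, M1-8 h and M1-12 h. Within wt, the 3 time points did not overlap, with M1-8 h lowest and M1-12 h highest. The log2 fold change was -0.76 ± 0.14 (SE) from M0 to M1-8 h (limma, Benjamini-Hochberg adjusted p = 0.00037), 0.56 ± 0.14 from M0 to M1-12 h (adjusted p = 0.0031) and 1.31 ± 0.14 from M1-8 h to M1-12 h (adjusted p = 3.3e-05). The spread of this fit includes the 6 libraries at 0 reads, and with only the 6 wt libraries the SE was 0.18 and the adjusted p 0.0044, 0.020 and 0.0012. The fall at M1-8 h depended on the scaling. On the CPM scale it lay 0.01 below the shift of the median gene. It came to -0.04 under median of ratios scaling or 0.23 under quantile normalization, neither of them called. The rise at M1-12 h was 1.33 and 1.52 under these scalings. It fell to 0.40 without wt M0 replicate 2 and to 0.36 without wt M1-12 h replicate 2, under the 1.4-fold limit in both cases, whereas the rise from M1-8 h to M1-12 h was called under all alternatives run.

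**Figure D1:**
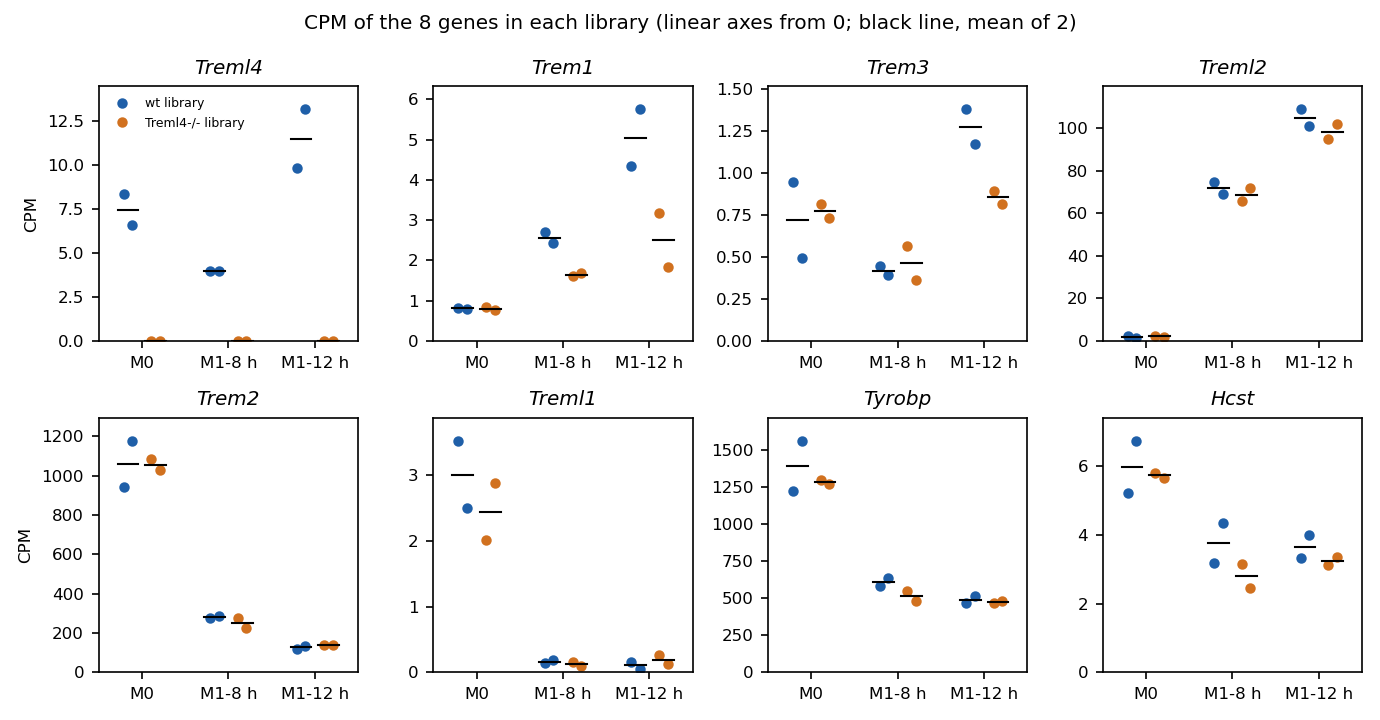
CPM of the 8 genes in each of the 12 libraries, with 1 panel per gene, time on the horizontal axis, blue points for wt, orange points for Treml4-/- and a black line for the mean of 2 libraries. Treml4 is at 0 in all 6 Treml4-/- libraries, Treml2 rises from 1.32 to 2.14 CPM at M0 to 65.6 CPM or more after LPS, and Trem2 falls from 942 to 1177 CPM to 286 CPM or less.

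Of the receptors that rose, Treml2 and Trem1 did so in both genotypes. TREML2 is a TREM-like receptor found on lymphoid and myeloid cells. Treml2 stood at 2.14 and 1.32 CPM at M0, 74.6 and 69.1 CPM at M1-8 h and 109 and 101 CPM at M1-12 h in wt. In Treml4-/- cells the same time points gave 2.14 and 2.02, 65.6 and 71.9, and 95.004 and 102 CPM. No library after LPS came near those at M0, and mean CPM was 41.5-fold and 60.7-fold higher than at M0 in wt and 33.1-fold and 47.3-fold higher in Treml4-/- cells. The log2 fold change was 4.75 ± 0.13 (SE) at M1-8 h and 5.29 ± 0.13 at M1-12 h in wt (limma, Benjamini-Hochberg adjusted p = 7.9e-11 and 4.1e-11), and 4.50 ± 0.13 and 5.01 ± 0.13 in Treml4-/- cells. Between M1-8 h and M1-12 h Treml2 rose again, by 0.54 ± 0.13 in wt (adjusted p = 0.0067, limma) and 0.51 ± 0.13 in Treml4-/- cells (adjusted p = 0.0089, limma). The latter was 0.45 and not called without Treml4-/- M1-8 h replicate 1, and 0.46 and not called without Treml4-/- M1-12 h replicate 2.

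Trem1 was far weaker. It had 0.829 and 0.787 CPM in wt and 0.835 and 0.767 CPM in Treml4-/- cells at M0, that is 40 to 43 reads in each library. Wt libraries reached 2.70 and 2.43 CPM by M1-8 h, then 4.33 and 5.76 CPM by M1-12 h. Libraries of Treml4-/- cells reached 1.61 and 1.68 CPM, then 3.17 and 1.84 CPM. Trem1 reached 1 CPM, and so passed the filter, only through the 8 LPS libraries. LPS libraries lay above M0 in both genotypes with no overlap, and wt libraries lay above Treml4-/- libraries at both LPS times. Trem1 rose by 0.98 ± 0.17 (SE) at M1-8 h and 1.73 ± 0.17 at M1-12 h in wt (limma, Benjamini-Hochberg adjusted p = 0.00022 and 1.8e-06). With no filter the adjusted p in wt was 0.0018 and 4.6e-05 (limma, Benjamini-Hochberg). Trem1 in Treml4-/- cells rose by 0.55 ± 0.17 and 0.93 ± 0.17 (adjusted p = 0.010 and 0.00032, limma). Without the filter these adjusted p were 0.034 and 0.0024 (limma, Benjamini-Hochberg). From M1-8 h to M1-12 h the change was 0.75 ± 0.17 in wt (limma, Benjamini-Hochberg adjusted p = 0.0042, and 0.020 with no filter). In Treml4-/- cells the change was 0.38 ± 0.17, which was not called (limma, Benjamini-Hochberg adjusted p = 0.090). It reached 0.54 with quantile normalization, which was called, and 0.65 without Treml4-/- M1-12 h replicate 2.

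Trem3, a receptor that pairs with Tyrobp in the mouse, was close to the filter on low values. It passed the filter on low values only through the 2 wt M1-12 h libraries, the group where it was highest. In wt it had 0.945 and 0.492 CPM at M0, 0.444 and 0.390 CPM at M1-8 h and 1.38 and 1.17 CPM at M1-12 h, from 21 to 72 reads. Treml4-/- libraries had 0.815 and 0.730, 0.564 and 0.366, and 0.896 and 0.816 CPM. In both genotypes the M1-8 h libraries were lowest. The difference between M1-12 h and M1-8 h in wt, which involves the group that let the gene into the test, was the only one called, at 0.68 ± 0.13 (SE, limma, Benjamini-Hochberg adjusted p = 0.0016). With no filter on low values its adjusted p was 0.0043 (limma, Benjamini-Hochberg). Against M0 the wt values were -0.27 ± 0.13 at M1-8 h and 0.42 ± 0.13 at M1-12 h. The latter was under the 1.4-fold limit but came to 0.80 under median of ratios scaling, to 0.94 under quantile normalization and to 0.61 without wt M0 replicate 1, all of them called.

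Trem2, at M0 by far the most abundant receptor among the members, fell in both genotypes at both times. In wt it had 942 and 1177 CPM at M0, 276 and 286 CPM at M1-8 h and 119 and 136 CPM at M1-12 h. Treml4-/- libraries had 1082 and 1027 CPM, 277 and 227 CPM, and 139 and 141 CPM. The 3 time points did not overlap in either genotype, and the order M0, M1-8 h, M1-12 h was the same in both. Mean CPM was 3.77-fold and 8.31-fold lower than at M0 in wt and 4.19-fold and 7.52-fold lower in Treml4-/- cells. The log2 fold change was -1.90 ± 0.12 (SE) and -3.04 ± 0.12 in wt (limma, Benjamini-Hochberg adjusted p = 5.6e-08 and 1.4e-09) and -2.07 ± 0.12 and -2.90 ± 0.12 in Treml4-/- cells. These falls exceeded the shift of the median gene in wt (log2 values of -1.16 and -2.27 relative to it), and with median of ratios scaling they were -1.06 and -2.17, still called. Of the 8 macrophage markers 3 were called higher and 3 lower at each LPS time in both genotypes. Of all genes, 16.1% to 17.7% were called higher and 58.1% to 60.5% lower in these comparisons. Markers of osteoclasts, which also express Trem2 and Tyrobp, summed to 204 to 257 CPM at M0 and 94.6 to 146 CPM after LPS, but of the 6 tested 1 was called higher and 2 lower at each LPS time in both genotypes, and the defining gene Calcr had 0.198 CPM or less. The part of either in the Trem2 values was not tested. Trem2 went down further from M1-8 h to M1-12 h, by -1.14 ± 0.12 in wt (adjusted p = 3.2e-05, limma) and -0.83 ± 0.12 in Treml4-/- cells (adjusted p = 0.00028, limma).

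Treml1 was present at M0 and nearly gone after LPS. It passed the filter only through the 4 M0 libraries, with 183 and 127 reads in wt (3.53 and 2.50 CPM) and 99 and 154 reads in Treml4-/- cells (2.02 and 2.88 CPM). The 8 LPS libraries had 3 to 13 reads, or 0.0595 to 0.271 CPM, so they stood at or just over the floor and did not overlap with M0. On the fitted scale Treml1 fell by 1.77 ± 0.15 (SE) at M1-8 h and by 1.84 ± 0.15 at M1-12 h in wt (limma, Benjamini-Hochberg adjusted p = 5.5e-07 and 3.6e-07), and by 1.60 ± 0.15 and 1.52 ± 0.15 in Treml4-/- cells. Since the gene entered the test through M0 alone, these calls are not independent of the filter, and with no filter the adjusted p in wt was 8.6e-06 and 6.1e-06 (limma, Benjamini-Hochberg). The size depends on the pseudocount, and the fall at M1-8 h in wt ranged from -4.16 to -1.31 over the alternatives, called in each. Since TREML1 is known from platelets, markers of megakaryocytes and platelets were read beside it. Their sum, most of it Pf4, lay at 31.5 to 58.8 CPM at M0 and 22.5 to 56.2 CPM after LPS, 3 of 7 reached 1 CPM, and the defining platelet genes Gp9 and Gp1ba stayed under 1 CPM, at 0.0183 to 0.262 CPM. The part of these cells in the Treml1 values was not tested.

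The adaptors differed in level and in how firmly they moved. Tyrobp, the partner of most of these receptors, had 1224 and 1562 CPM at M0, 583 and 633 CPM at M1-8 h and 467 and 513 CPM at M1-12 h in wt. Treml4-/- libraries had 1299.8 and 1269 CPM, 548 and 484 CPM, and 467 and 479 CPM. Every LPS library lay below every M0 library. The log2 fold change was -1.19 ± 0.12 (SE) and -1.50 ± 0.12 in wt (limma, Benjamini-Hochberg adjusted p = 1.8e-06 and 2.4e-07) and -1.32 ± 0.12 and -1.44 ± 0.12 in Treml4-/- cells. Relative to the median gene the fall in wt was 0.44 and 0.73 on the log2 scale. With median of ratios scaling Tyrobp changed by -0.34 at M1-8 h in wt, which was not called, and by -0.62 at M1-12 h, which was.

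Hcst was weakly expressed, with 5.23 and 6.75 CPM at M0, 3.19 and 4.34 CPM at M1-8 h and 3.32 and 3.99 CPM at M1-12 h in wt. Treml4-/- cells gave 5.81 and 5.67 CPM, 3.16 and 2.47 CPM, and 3.12 and 3.35 CPM. LPS libraries were again below M0 without overlap on the CPM scale. The fold changes were -0.55 ± 0.16 (SE) and -0.58 ± 0.16 in wt (limma, Benjamini-Hochberg adjusted p = 0.0068 and 0.0051) and -0.83 ± 0.16 and -0.67 ± 0.16 in Treml4-/- cells (adjusted p = 0.00049 and 0.0021, limma). They did not outlast another scaling, since with median of ratios the wt values turned to 0.14 and 0.13 while Treml4-/- cells gave -0.22 and 0.00, none of them called. In wt the call at M1-8 h was also lost without M0 replicate 2 (-0.40) or without M1-8 h replicate 1 (-0.38), and that at M1-12 h without M0 replicate 2 (-0.42) or M1-12 h replicate 1 (-0.48).

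In all, 7 of the 8 members were called at M1-8 h in wt, 2 higher and 5 lower, where 76.8% of all genes tested were called, 16.3% higher and 60.5% lower. At M1-12 h in wt, 3 were higher and 4 lower against 16.2% and 60.4% of all genes (76.6% in either direction), and from M1-8 h to M1-12 h 4 were higher and 1 lower against 14.0% and 17.6% (31.6%). In Treml4-/- cells 2 were higher and 4 lower at each LPS time, beside 17.7% and 58.1% of all genes at M1-8 h (75.8%) or 16.1% and 59.6% by M1-12 h (75.7%), and 1 was higher and 1 lower between the times (32.3% of all genes called, 12.8% higher and 19.4% lower). With most genes called, the number of members called is near the background, and 4 of the 8 (Treml4, Trem1, Trem3 and Treml1) reached 1 CPM in some conditions only, so these counts support nothing about the family. With median of ratios scaling the split of all calls at M1-8 h in wt was even, 3726 higher and 3721 lower in place of 1971 and 7320, and that of the members was 2 higher (Trem1 and Treml2) and 2 lower (Trem2 and Treml1), beside 61.6% of all genes called, 30.8% higher and 30.8% lower. At M1-12 h 4 members were higher, with Treml4 and Trem3 added, and 3 lower, with Tyrobp added, beside 65.8% of all genes (32.8% higher and 33.0% lower). Treml4-/- cells then had 2 higher and 3 lower members at each LPS time, beside 63.3% of all genes at M1-8 h (30.9% higher and 32.4% lower) and 64.7% at M1-12 h (32.3% higher and 32.4% lower). The M1-8 h and M1-12 h comparisons share their M0 libraries and are not independent of each other. Treml2 stood at percentile 99.0 of all genes by log2 fold change at M1-8 h in wt, followed by Trem1 at percentile 88.8, Trem3 at 68.2, Hcst at 58.2, Treml4 at 49.4, Tyrobp at 30.9, Treml1 at 15.4 and Trem2 at 13.0.

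**Figure D2:**
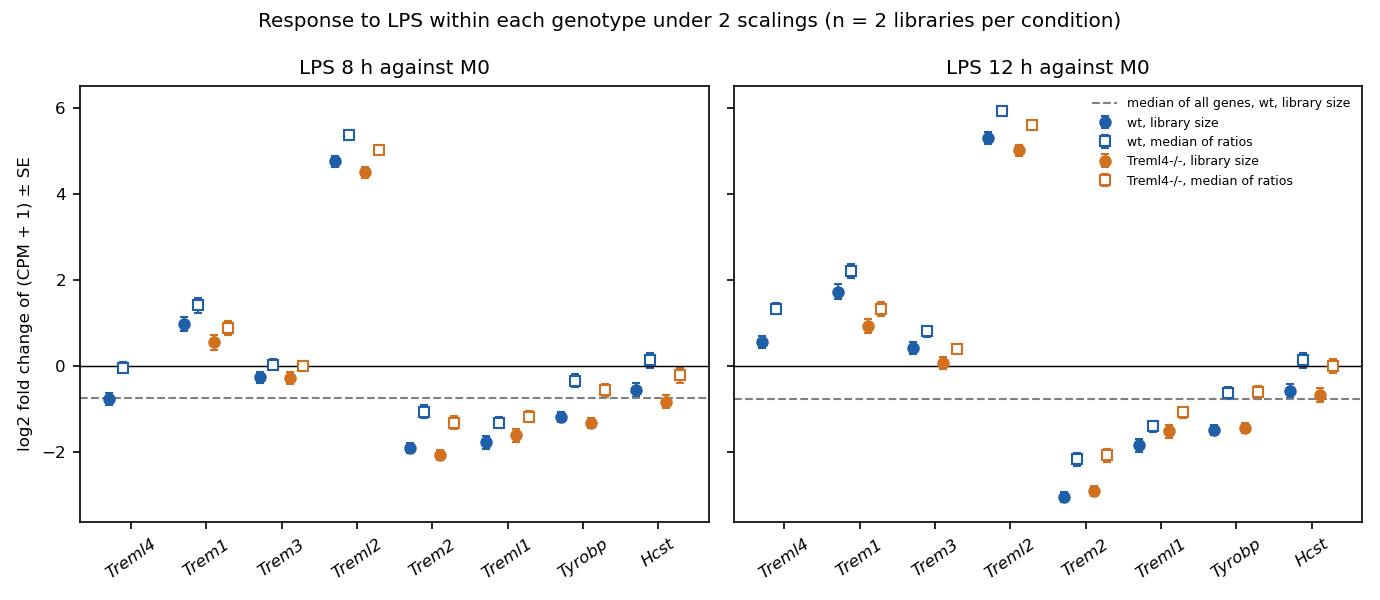
Log2 fold change of (CPM + 1) with its SE for each gene at LPS 8 h (left) and 12 h (right) against M0, blue for wt and orange for Treml4-/-, filled circles for the deposited library size scaling and open squares for median of ratios scaling (Treml4 is shown for wt only), with the median of all genes in wt as a dashed line. Treml2 and Trem1 lie above 0 and Trem2 and Treml1 below 0 under both scalings, while Hcst moves from -0.55 to 0.14 in wt at 8 h.

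Levels of different genes were compared as CPM per kb of exon. At M0 in wt the order was Tyrobp (2088 CPM per kb), Trem2 (214), Hcst (8.29), Treml4 (3.74), Treml1 (2.15), Trem3 (0.723), Treml2 (0.352) and Trem1 (0.270). Only the last pair overlapped between libraries. After LPS the order was rebuilt below the leading pair. Treml2 moved from rank 7 to rank 3 in wt and from rank 6 to rank 3 in Treml4-/- cells, and Treml1 moved from rank 5 to rank 8 in wt. The ratio of Trem2 to Treml2 per kb, as a mean over libraries, went from 663 at M0 to 3.90 at M1-8 h and 1.21 at M1-12 h in wt, and from 504 to 3.66 and 1.42 in Treml4-/- cells. At M1-12 h in wt the 2 libraries gave 1.09 and 1.34, so Trem2 was still above Treml2 in each. Treml4 and Hcst overlapped at M1-12 h in wt, at 5.75 and 5.06 CPM per kb, and Trem1 and Trem3 overlapped in Treml4-/- cells at both LPS times. Trem2 also fell relative to its adaptor, from 0.103 of the Tyrobp level per kb at M0 to 0.0624 at M1-8 h and 0.0351 at M1-12 h in wt, a ratio within each library that does not depend on its size factor. For Treml4-/- cells the ratio was 0.111, 0.0656 and 0.0400. Tyrobp stood at 252, 178 and 146 times the Hcst level per kb at the 3 times in wt.

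**Figure D3:**
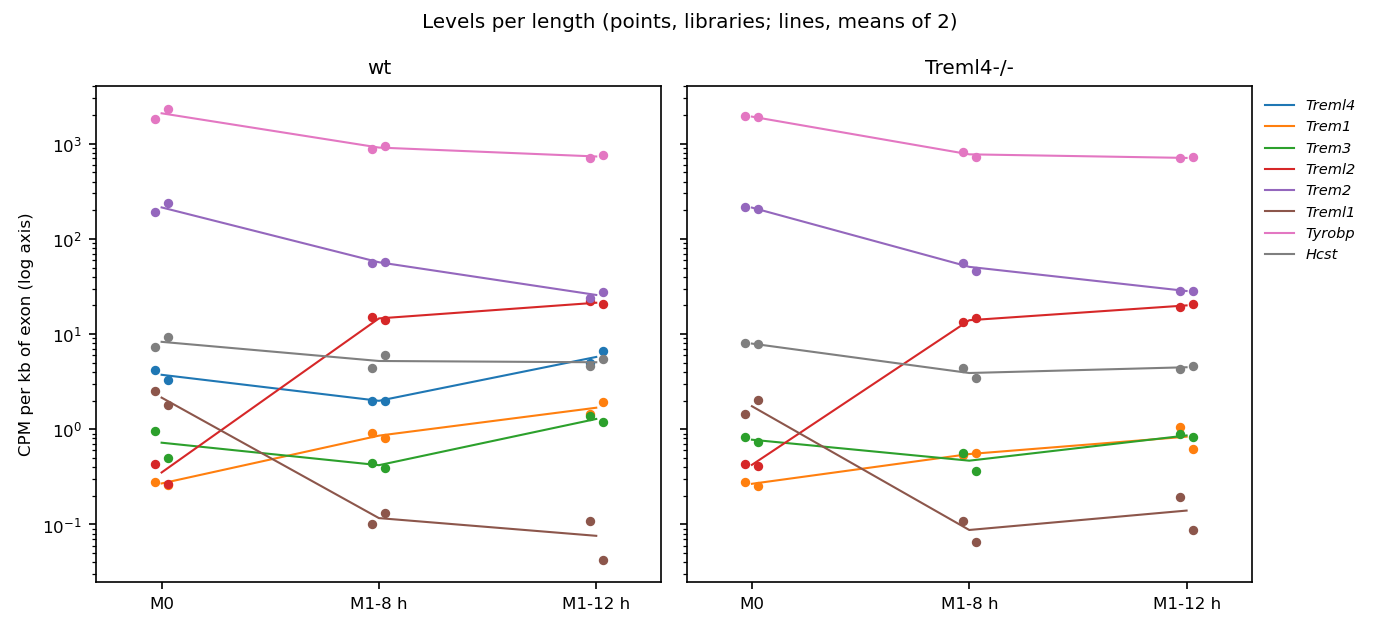
CPM per kb of exon on a log axis for each gene at M0, M1-8 h and M1-12 h in wt (left) and Treml4-/- cells (right, without Treml4, which had 0 reads), with points for libraries and lines through the means of 2. Treml2 climbs from 0.352 to 21.3 CPM per kb in wt while Trem2 drops from 214 to 25.8, so the lines nearly meet at M1-12 h.

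The main question of the design was what differs between genotypes, and among the members only Treml4 itself was called, at each time. Treml4 is the deleted gene and passed the filter only through the 6 wt libraries. Its call was therefore fixed by the design and is no result about the members. None of the 7 other members was called, where 0.0992% of all genes were called at M0 (0.0414% above and 0.0579% below Treml4-/- cells). These shares were 0.091% for M1-8 h (0.0331% above, 0.0579% below) and 0.132% for M1-12 h (0.0496% above, 0.0827% below). The fitted log2 fold change of Treml4, wt over Treml4-/-, was 3.07, 2.31 and 3.62, values that depend on the pseudocount because the other group is at 0 reads. At M0 the 2 genotypes overlapped for all 7 other members, with log2 fold changes from -0.19 (Treml2) to 0.22 (Treml1), beside 28.8% of all genes without overlap. At M1-8 h 3 of the 7 did not overlap (Trem1, Tyrobp and Hcst, each higher in wt), where 51.9% of all genes did not, and at M1-12 h 3 did not (Trem1 and Trem3 higher and Trem2 lower in wt), where 43.0% did not. These shares are near or under the background.

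Trem1 differed most among the other members. Its log2 fold change was 0.01 at M0 (95% interval -0.41 to 0.42), 0.43 at M1-8 h (0.01 to 0.85) and 0.80 at M1-12 h (0.39 to 1.22). The ratio of mean CPM, a different measure without the added 1 CPM, was 1.56-fold and 2.02-fold higher in wt at the LPS times. The adjusted p was 0.20 at M1-8 h and 0.14 at M1-12 h (limma, after Benjamini-Hochberg correction), so neither was called, and over all alternatives the adjusted p at M1-12 h ranged from 0.064 to 0.89 and the value from 0.53 to 1.08. The difference between the LPS responses of the genotypes was 0.42 at M1-8 h (95% interval -0.16 to 1.01) and 0.80 at M1-12 h (0.21 to 1.39), with adjusted p of 0.74 and 1.0 (limma), and none of the members was called there, where 0.00827% of all genes, 1 gene, were called at each time. An unadjusted p under 0.05 was reached for the response at M1-8 h by no member except Treml4, and at M1-12 h by Trem1 and Treml4, beside 6.67% and 3.83% of all genes. For Treml4, at 0 reads in 1 genotype, this term repeats the wt response. TREM1 is also a receptor of neutrophils, and summed neutrophil markers were lower in wt than in Treml4-/- cells at M1-8 h, at 72.2 to 76.0 against 84.1 to 108 CPM, and overlapped at M1-12 h, at 48.9 to 59.1 against 55.9 to 66.8 CPM. Ly6g, the defining gene of that list, had 0 to 0.0202 CPM after LPS, but S100a8 had 30.6 to 50.3 CPM and S100a9 9.09 to 24.1 CPM. S100a8 was the largest part of the sum at M1-8 h, at 34.4 and 30.7 CPM in wt and 50.3 and 39.9 CPM in Treml4-/- cells. Of the 7 neutrophil markers tested, 1 was called higher at each LPS time in both genotypes. Those called lower numbered 2 at M1-8 h and 5 at M1-12 h for wt, against 4 and 6 for Treml4-/- cells. As background, the share of all tested genes called lower by LPS ranged from 58.1% to 60.5%, and that called higher from 16.1% to 17.7%. With 7 markers, these counts lie on both sides of that background. The part of neutrophils in the Trem1 values was not tested.

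None of the remaining members was called. At M1-12 h the 95% interval of the log2 fold change was -0.44 to 0.16 for Trem2, -0.23 to 0.42 for Treml2, -0.23 to 0.33 for Tyrobp, -0.26 to 0.52 for Hcst and -0.03 to 0.61 for Trem3. These intervals use the 6 residual degrees of freedom and are wider than those behind limma's p, which borrows spread from other genes. For the weakest genes log2(CPM + 1) compresses the difference and sets no bound on the fold: mean Treml1 at M1-12 h was 0.106 CPM in wt and 0.196 CPM in Treml4-/- cells, 1.84-fold lower in wt with overlapping libraries of 3 to 13 reads, and mean Trem3 was 1.28 and 0.856 CPM, 1.49-fold higher in wt. At M1-8 h Hcst stood at 0.32 (-0.07 to 0.71, adjusted p = 0.28, limma) and Tyrobp at 0.24 (-0.05 to 0.52, adjusted p = 0.27, limma). Apart from Treml4, limma gave 0 members at an unadjusted p under 0.05 at M0, 1 at M1-8 h (Trem1) and 2 at M1-12 h (Trem1 and Trem3), beside 3.36%, 21.0% and 7.54% of all genes, and limma's voom called none. The intervals of Trem2, Treml2 and Tyrobp at M1-12 h stay within a 1.4-fold change in either direction.

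**Figure D4:**
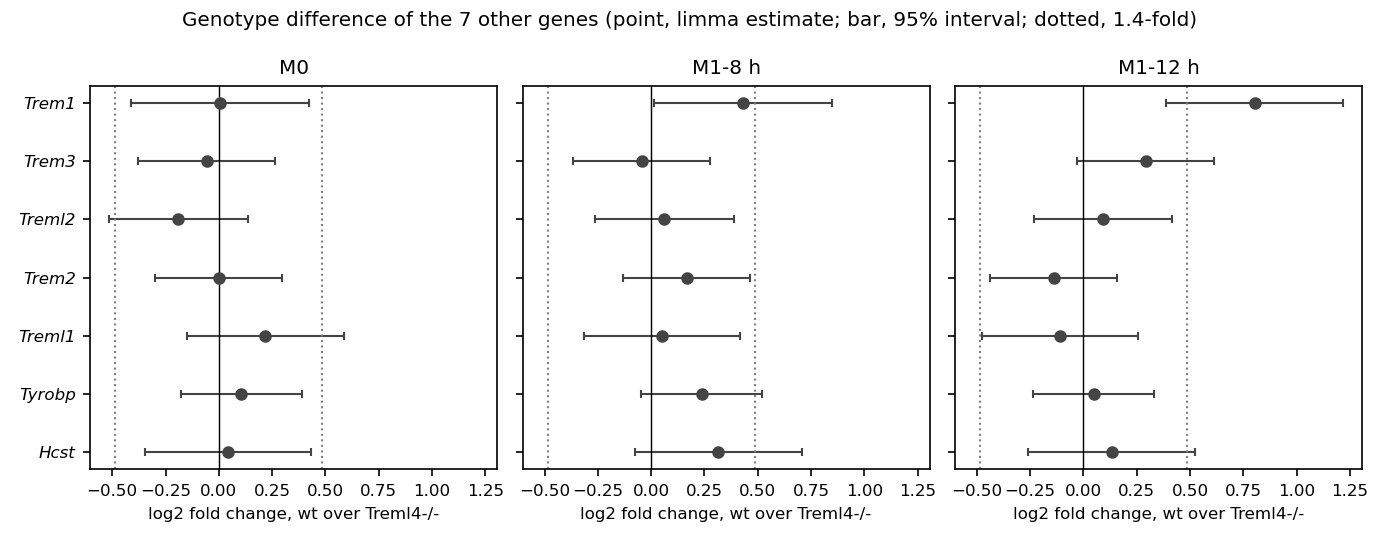
Log2 fold change of (CPM + 1), wt over Treml4-/-, at M0, M1-8 h and M1-12 h for the 7 genes other than Treml4, with points for the limma estimate, bars for its 95% interval and dotted lines at 1.4-fold. Only the bars of Trem1 at M1-8 h and M1-12 h, from 0.01 to 0.85 and from 0.39 to 1.22, leave out 0, and neither passed the adjusted threshold.

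Other genes of the cluster were read from the annotation by position, and 8 of 14 were matched to a row, 4 of which were tested. B430306N03Rik, listed in RefSeq as Treml6 and located between Treml2 and Trem2 from 48315279 to 48326511, rose from 87.0 ± 16 CPM (SD, n = 2) at M0 to 366 ± 26 at M1-8 h and 377 ± 21 CPM at M1-12 h in wt. Treml4-/- cells had 91.7 ± 1.4, 369 ± 9.6 and 378 ± 17 CPM. Its log2 fold change at M1-8 h in wt was 2.07 ± 0.11 (SE, limma, Benjamini-Hochberg adjusted p = 1.5e-08). A530064D06Rik, which lies on the Trem1 side of the cluster from 48151896 to 48167257, rose from 22.9 ± 0.44 to 55.1 ± 9.4 and 129 ± 9.5 CPM, a log2 fold change of 1.22 ± 0.11 at M1-8 h and 2.44 ± 0.11 at M1-12 h. Beyond Treml1, Nfya, a subunit of the CCAAT-binding factor NF-Y, and Oard1 were lower after LPS on the CPM scale, by 1.10 and 1.22 at M1-8 h in wt, but not called with median of ratios scaling (-0.26 and -0.46). Between genotypes 0 of these 4 genes were called at any time by limma, and 1, A530064D06Rik at M1-8 h, had an unadjusted p under 0.05, as did 21.0% of all genes.

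Receptors that pair with or signal through the same adaptors were taken from a written list of 15, of which 12 were tested. In wt at M1-8 h 5 were higher and 5 lower (median log2 fold change -0.28, against -0.74 over all genes), and with median of ratios scaling 6 were higher and 3 lower. Of all genes tested, 16.3% were called higher and 60.5% lower in this comparison, and 30.8% and 30.8% with median of ratios scaling. The changes of largest size were those of Cd300lb, an activating receptor of the CD300 family, from 506 ± 41 to 25.3 ± 2.7 CPM (SD, n = 2; log2 fold change -4.27), and of Klrk1, the NKG2D receptor that signals through Hcst, from 2 and 0 reads to 293 and 302 reads (5.61 to 5.91 CPM; log2 fold change 2.72, a value set by the pseudocount). Cd300ld fell by 2.41, and Csf1r, the receptor of the growth factor of these cultures, fell by 2.41 from 6439 to 1206 CPM. The CD300, Sirpb1 and Pilrb genes of the list have near relatives, and their reads may have been split between copies.

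Among 35 kinases and proximal signalling genes 33 were tested, and at M1-8 h wt cells had 10 higher and 14 lower (19 and 9 with median of ratios scaling). The shares of all genes were 16.3% higher and 60.5% lower, and 30.8% and 30.8% with median of ratios scaling. Syk, the kinase recruited by Tyrobp, was not called, at 0.25, but was higher by 1.10 and called with median of ratios scaling. Malt1, a protease of the CARD9 complex, rose by 2.85 ± 0.24 (SE) from 35.2 ± 1.6 to 266 ± 84 CPM (SD, n = 2). Vav2, a guanine nucleotide exchange factor (-3.02), Pik3r2, a regulatory subunit of phosphatidylinositol 3-kinase (-2.66), and Plcg1, a phospholipase (-2.48), fell. All of these were also called with median of ratios scaling, at 3.67, -2.24, -1.84 and -1.72. The Src family kinases Lyn (2.10), Src (2.26) and Fyn (1.20) rose under both scalings, whereas Fgr was lower by 0.56 on the CPM scale and at 0.27 and not called with median of ratios.

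Inhibitors of ITAM signalling were listed with 16 genes, of which 15 were tested. In wt at M1-8 h 5 were higher and 5 lower (8 and 3 with median of ratios scaling). The shares of all genes were 16.3% higher and 60.5% lower (30.8% and 30.8% with median of ratios scaling). Socs1 and Socs3, inhibitors of cytokine receptor signalling, rose by 7.02 ± 0.11 and 6.31 ± 0.10 (SE). Socs1 went from 0.643 ± 0.092 to 213 ± 9.6 CPM (SD, n = 2). Ptpn22, a phosphatase of Src and Syk family kinases, fell by 3.86, from 59.5 ± 8.5 to 3.14 ± 0.19 CPM. Inpp5d, the lipid phosphatase SHIP1 that opposes phosphatidylinositol 3-kinase, fell by 2.83 and stood higher again at M1-12 h, at 196 ± 29 against 73.3 ± 18 CPM at M1-8 h. All 4 kept their direction and call with median of ratios scaling.

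Ligands and shedding enzymes counted 19 listed and 16 tested genes, of which wt cells at M1-8 h had 3 higher and 9 lower (6 and 5 with median of ratios scaling). Their median log2 fold change was -0.82, against -0.74 over all genes. The shares of all genes were 16.3% higher and 60.5% lower (30.8% and 30.8% with median of ratios scaling). Cd276, a reported ligand of Treml2, fell by 3.37, from 50.7 ± 6.3 to 3.99 ± 0.13 CPM (SD, n = 2). Hspa1a, a heat shock protein, rose by 2.83 and on to 108 ± 15 CPM at M1-12 h. Hmgb1, a nuclear protein released by injured cells, fell by 2.00, and Adam10, a protease that sheds Trem2 from the cell surface, fell by 1.94. Apoe, a ligand of Trem2, fell by 1.30, and was at -0.46 and not called with median of ratios scaling. The counts at M1-8 h in Treml4-/- cells were 5 higher and 5 lower among the paired receptors, 11 and 12 among the kinases, 4 and 5 among the inhibitors and 3 and 8 among the ligands. By M1-12 h the order of these lists gave 4 and 4, 8 and 16, 4 and 4, and 3 and 9 genes for wt, against 4 and 4, 9 and 15, 4 and 3, and 3 and 8 for Treml4-/- cells. Of all genes, 17.7% were called higher and 58.1% lower at M1-8 h in Treml4-/- cells. At M1-12 h 16.2% and 60.4% were in wt, and 16.1% and 59.6% in Treml4-/- cells. No gene of the 4 lists was called by limma between genotypes or in the difference of the LPS responses. At an unadjusted p under 0.05 limma gave, of the 76 genes tested between genotypes, 2 at M0, 21 by M1-8 h and 13 by M1-12 h, and 8 and 3 for the difference of the responses. Over all genes the shares were 3.36%, 21.0%, 7.54%, 6.67% and 3.83%, in the same order.

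**Figure D5:**
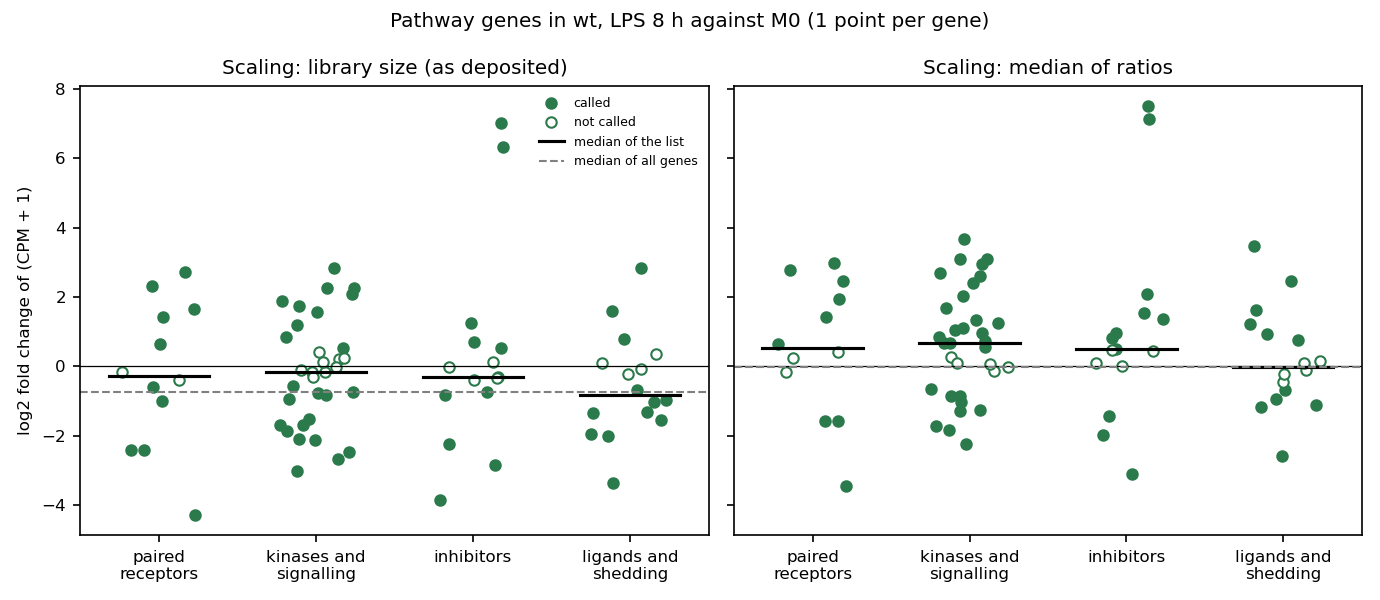
Log2 fold change of (CPM + 1) at LPS 8 h against M0 in wt for each tested gene of the 4 lists, filled when called, with a black line for the median of the list and a dashed line for the median of all genes, under library size scaling (left) and median of ratios scaling (right). The list medians on the left lie between -0.82 and -0.16 beside -0.74 for all genes, and move up with all genes on the right, so the split into higher and lower genes depends on the scaling.

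The genes with the most similar profile were found by the root mean square difference of log2(CPM + 1), each centred on its own mean. Over the 6 wt libraries the profile nearest to Treml4 was that of Dusp6, at 0.10 on the log2 scale, followed by Chac1 and Hlcs, at 0.12 and 0.14. Over all 12 libraries the nearest to Trem1 were Il1r2, Ccnd3 and Ptk2 (0.22 to 0.23), and to Treml2 Dpy19l3, Ccl8 and Phf11d (0.14 to 0.16). Trem2 was nearest to Fdx1l, Pdcd11 and Ipo4 (0.10 to 0.13), Treml1 to Cmtr2, Pon2 and Slc35g1 (0.09 to 0.11), and Trem3 to Nme7, Sqrdl and Prelid1 (0.11 to 0.12). For the adaptors the nearest were Higd2a, Fuca1 and Gltscr2 with Tyrobp (0.04 to 0.07) and Unc93b1, Btbd9 and Gm2a with Hcst (0.08 to 0.09). These distances were the smallest in a search over the 12091 genes tested, so they are small by selection, and their size was not tested. The SD of the member itself was 0.61 for Treml4, 0.65 for Trem1, 2.42 for Treml2, 1.30 for Trem2, 0.84 for Treml1, 0.69 for Tyrobp, 0.36 for Hcst and 0.26 for Trem3. All profiles share the libraries and the shift of the CPM scale with LPS.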

How the data were processed

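Bone marrow was cultured into macrophages, and RNA was made into stranded poly(A) libraries and sequenced as paired ends. The submitters' processing notes name STAR and the mm10 build, and whether counting used strand is not given in the sources used here. The authors deposited log2 CPM for 43280 genes in 12 libraries, with a prior of 0.25 reads added to each count and no scaling beyond library size. Whole reads were recovered from 100% of these log2 values within 0.01 of a read, which gave the reads, depths and CPM printed here. Precision from these reads covers counting error only.

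The test was limma 3.58.1 in R 4.3.3, with a trend in the prior variance, on log2(CPM + 1), where CPM still held the prior of 0.25 reads. All 12 libraries were fitted with 6 condition means, which left 6 residual degrees of freedom. The 12091 genes that reached 1 CPM in 2 or more libraries entered the test, with Benjamini-Hochberg adjustment over all of them. Differences are wt minus Treml4-/- and LPS minus M0. Exon lengths came from GENCODE M21 and promoters from RefSeq, both on GRCm38. The members, gene lists and tests were chosen with earlier results of these data known. Named genes were all members, the 4 genes of each pathway list with the largest changes, the tested genes of the cluster, and the 3 most similar profiles of each member. Other genes (Syk, Lyn, Src, Fyn, Fgr, Apoe) were named after their values were seen. The script was tested on simulated data. Alternatives were 2 other pseudocounts, 2 other filters, 2 other scalings, limma's voom on the recovered reads, no trend, no minimum fold, only the libraries compared, replicate blocks and leaving out each library, with the fit of the 6 wt libraries added after seeing the data.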

Additional observations from a re-analysis of the deposited data

How the results depend on the processing

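The 11 counts of members called held in 260 alternatives and moved by over 1.5 times in 4. The count at M1-8 h in wt was 4 with median of ratios scaling, that from M1-8 h to M1-12 h in wt was 3 with the filter at 5 CPM, which tests fewer members, and that of the genotype-by-LPS difference at M1-12 h was 1 with quantile normalization, the member being Treml4. From M1-8 h to M1-12 h in Treml4-/- cells the count was 1 to 2 on leaving out single libraries, and 1 without Treml4-/- M1-8 h replicate 1. Of the 71 log2 fold changes of members, 1620 alternative values kept direction and call, 12 gained the call, 13 lost it and 30 turned direction. Except where stated, the cause was not tested.

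Turned by scaling were, at M1-8 h in wt, Treml4 (0.23 with quantile normalization), Trem3 (0.032 with median of ratios and 0.13 with quantile normalization) and Hcst (0.14 and 0.40). At M1-12 h in wt Hcst was 0.13 and 0.41, and from M1-8 h to M1-12 h 0.0081 with quantile normalization. In Treml4-/- cells Trem3 at M1-8 h was 0.0042 and 0.040, Hcst at M1-8 h 0.034 with quantile normalization, and Hcst at M1-12 h 0.00021 and 0.32. Between genotypes Trem2 at M0 was 0.038 and 0.0095, and Trem3 at M1-8 h 0.078 with quantile normalization.

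Leaving out single libraries turned only values that were not called. Between genotypes at M0 these were Hcst (-0.11 to 0.20), Trem1 (-0.022 to 0.033), Trem2 (-0.16 to 0.16), Trem3 (-0.25 to 0.13), Treml2 (-0.41 to 0.029) and Tyrobp (-0.070 to 0.28). At M1-8 h they were Trem3 (-0.14 to 0.053) and Treml2 (-0.0022 to 0.13), and at M1-12 h Tyrobp (-0.018 to 0.12). From M1-8 h to M1-12 h they were Hcst in wt (-0.20 to 0.15) and Treml1 in Treml4-/- cells (-0.00092 to 0.18). On the deposited log2 CPM, Treml4 in wt was -0.90 at M1-8 h (limma, Benjamini-Hochberg adjusted p = 0.070) and 0.62 at M1-12 h (adjusted p = 0.20), over a range of 0.00014 to 0.77 and 2.7e-07 to 0.20 among the alternatives.

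With replicate number as a block, the counts were 7, 7 and 5 in wt, 6, 6 and 2 in Treml4-/- cells, 1, 1 and 1 between genotypes and 0 and 0 for the difference of responses. With culture as a block, the counts within wt, within Treml4-/- cells and for the difference of responses were the same. The genotype comparisons were not fitted with that block, since each culture belongs to 1 genotype. Neither block changed a call where it was fitted. The replicate numbers are not stated to pair the libraries, and deviations of same-numbered libraries correlated from -0.27 to 0.46. With 2 libraries per condition, depth limits Trem1, Trem3 and Treml1, which had under 100 reads in some libraries. Treml2 had 67 reads in wt M0 replicate 2, so depth also limits its level at M0. Over all genes, voom on the recovered reads called 9578 genes at M1-8 h in wt (9291 with limma on log2 values) and 10 between genotypes at M1-12 h (16), a count that ranged from 6 (without Treml4-/- M1-12 h replicate 2, and without wt M1-12 h replicate 2) to 79 (without wt M1-12 h replicate 1) over the alternatives.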
